A study of Caenorhabditis elegans with 8 samples.

Results

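The 6 vitellogenin genes of *C. elegans*, *vit-1* (K09F5.2), *vit-2* (C42D8.2), *vit-3* (F59D8.1), *vit-4* (F59D8.2), *vit-5* (C04F6.1) and *vit-6* (K07H8.6), were followed across 4 strains. They are the whole named family, and the rule that lists them uses no measured value, although earlier results of these data were known when the family was picked. They are 6 of 45461 features in the deposited table, and all 6 were abundant enough to be tested. The reference annotation places *vit-1* to *vit-5* on chromosome X and *vit-6* on chromosome IV, and *vit-3* and *vit-4* are next to each other among the coding genes.

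RNA was sequenced from whole hermaphrodites of the wild type (N2), *egl-9(sa307)* single mutants (JT307), *egl-9(sa307) hif-1(ia4)* double mutants (CB6088) and *cyp-36A1(gk824636); egl-9(sa307)* double mutants (MT22836). The alleles are loss-of-function, written *lf* here. Each strain has 2 libraries, from separate populations of about 150 very young adults with 0 to 1 eggs in the uterus, grown at 22.5 °C on OP50 bacteria. All 3 mutant strains carry the same *egl-9* allele, and *hif-1* and *cyp-36A1* single mutants were not analysed here. The comparisons ask which changes of *egl-9(lf)* animals need *hif-1*, and which of those also need *cyp-36A1*. EGL-9 is the oxygen-dependent hydroxylase that marks the transcription factor HIF-1 for degradation, and CYP-36A1 is a cytochrome P450 enzyme.

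Vitellogenins are the yolk proteins of the nematode, large lipid-binding proteins of the same family as vertebrate vitellogenin and apolipoprotein B. The adult hermaphrodite intestine makes them, secretes them into the body cavity, and growing oocytes take them up through the receptor RME-2. *vit-1* and *vit-2* encode one large yolk polypeptide, YP170B, *vit-3*, *vit-4* and *vit-5* encode another, YP170A, and the product of *vit-6* is cleaved into the smaller yolk polypeptides. Genes of one polypeptide are nearly identical, so the division of their shared reads between members by the counting software is uncertain. Because RNA came from whole animals of one age, a smaller amount of intestine and less vitellogenin RNA per intestinal cell cannot be told apart, and the adult onset of these genes could not be examined.

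Library totals were 11925027 to 22269111 expected counts, both extremes in the wild type. The strain labels were compared with the targeted genes. *hif-1* was at 42.9 and 45.7 CPM (counts scaled to a common library total) in the *hif-1* double mutant and at 187 and 188 CPM in the wild type. *egl-9* RNA was higher in *egl-9(lf)* (87.3 and 100.4 CPM) than in the wild type (27.3 and 26.0 CPM). It was at 22.8 and 24.3 CPM in the *hif-1* double mutant and at 86.2 and 111 CPM in the *cyp-36A1* double mutant. *cyp-36A1* was at 29.3 and 54.7 CPM in *egl-9(lf)* and at 4.81 and 19.2 CPM in the *cyp-36A1* double mutant, a log2 fold change of -1.81 that did not pass (adjusted p = 0.12, edgeR's quasi-likelihood test). In the wild type it was at 5.79 and 8.96 CPM, so replicate 2 of that double mutant lay above both wild-type libraries. All 11 intestine marker genes were detected, which in whole animals does not test the identity of the tissue. Among them were *elt-2*, its defining GATA factor, at 7.39 to 16.4 CPM and the protease gene *asp-1* at 1615 to 2386 CPM.

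The 6 genes together took 10.6% and 9.72% of all expected counts in the 2 wild-type libraries. The share was 6.07% and 5.46% in *egl-9(lf)*, 9.11% and 9.14% in the *hif-1* double mutant, *egl-9(lf) hif-1(lf)*, and 7.64% and 8.12% in the *cyp-36A1* double mutant, *cyp-36A1(lf); egl-9(lf)*. The strains thus lay in the order wild type, *hif-1* double mutant, *cyp-36A1* double mutant and *egl-9(lf)*, with no overlap between neighbours in that order. Vitellogenin messages are long, and a long message gives more reads per molecule. In the deposited FPKM values (fragment counts scaled by gene length and library total), the 6 genes took 2.47%, 1.47%, 2.19% and 1.99% of the summed FPKM in the same 4 strains, as means of 2 libraries. On this scale the double mutants overlapped, at 2.23% and 2.16% with *hif-1* lost and 1.81% and 2.16% with *cyp-36A1* lost.

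**Figure D1:**
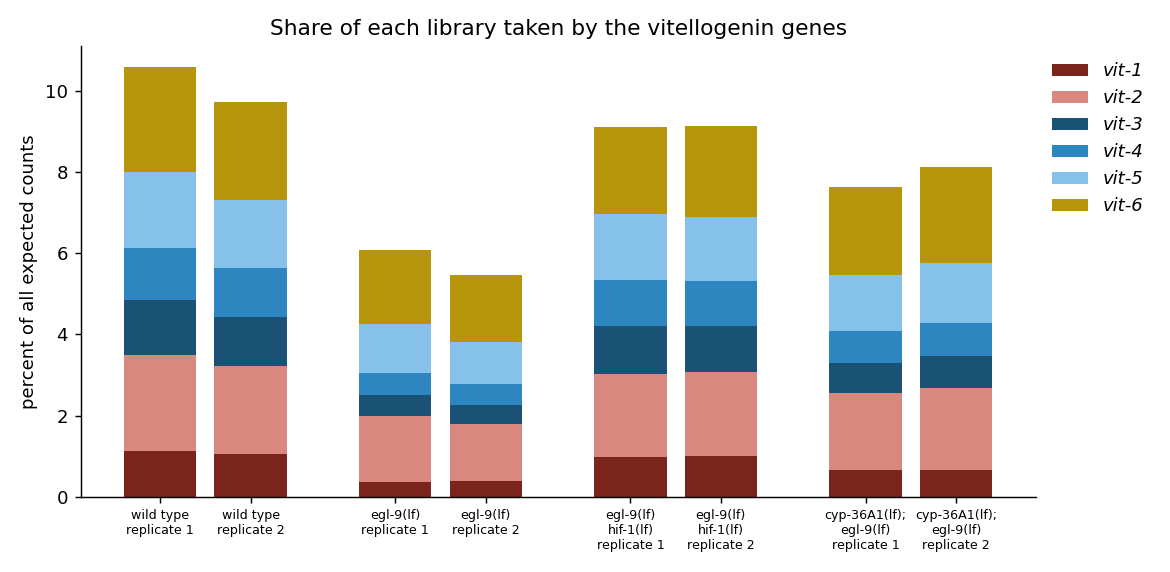
Share of all expected counts taken by each vitellogenin gene, stacked, in each of the 8 libraries (y axis: percent of all expected counts). The 2 *egl-9(lf)* libraries hold the smallest totals, 6.07% and 5.46%, and the 2 wild-type libraries the largest, 10.6% and 9.72%.

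Per length, *vit-6* was the highest member in every library. In the wild type its level was 5189 ± 265 FPKM (SD, n = 2), followed by *vit-2* at 4492 ± 312 FPKM and *vit-5* at 3584 ± 304 FPKM. The other 3 members formed a lower tier, with *vit-3* at 2561 ± 168 FPKM, *vit-4* at 2482 ± 112 FPKM and *vit-1* at 2026 ± 88.8 FPKM. *vit-3* and *vit-4* overlapped in the 2 wild-type libraries, while every other pair of neighbours in the order was separate. Among all genes of wild-type replicate 1, *vit-6* ranked 2, *vit-2* ranked 4 and *vit-5* ranked 9 by FPKM, and *vit-1*, the lowest member, ranked 79.

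In *egl-9(lf)* the gap between the tiers was wider. *vit-6* was at 3628 ± 274 FPKM, *vit-2* at 2984 ± 300 FPKM and *vit-5* at 2250 ± 275 FPKM (SD, n = 2). *vit-4* was at 1073 ± 40.7 FPKM, *vit-3* at 987 ± 52.5 FPKM and *vit-1* at 710 ± 20.1 FPKM. No neighbouring members overlapped in these 2 libraries, and in *egl-9(lf)* replicate 1 *vit-1* ranked 181 among all genes.

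The lower tier varied more between strains. *vit-1*, one of the YP170B genes, was at 11315 and 10674 CPM in wild-type animals, 3536 and 3735 CPM in *egl-9(lf)* animals, 9884 and 10210 CPM in the *hif-1* double mutant and 6644 and 6705 CPM in the *cyp-36A1* double mutant. The 4 strains did not overlap, and the *cyp-36A1* double mutant lay between *egl-9(lf)* and the other 2 strains. *vit-3*, a YP170A gene, was at 13576 and 12420, 4870 and 4585, 11904 and 11297, and 7583 and 7686 CPM in the same order of strains. Its neighbour *vit-4*, also a YP170A gene, was at 12960 and 12204, 5229 and 5030, 11384 and 11419, and 8150 and 8356 CPM. Both repeated the order seen for *vit-1*, again with no overlap between strains.

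The upper tier kept more of its RNA in *egl-9(lf)*. *vit-2*, the second YP170B gene, was at 24203 and 22019 CPM in wild-type animals, 15401 and 13556 CPM in *egl-9(lf)* animals, 20810 and 21154 CPM in the *hif-1* double mutant and 19311 and 20201 CPM in the *cyp-36A1* double mutant. *vit-5*, the remaining YP170A gene, was at 19208 and 17099, 11594 and 9894, 16697 and 16084, and 14116 and 14711 CPM in that order. In both genes the strains followed the same order without overlap. *vit-6* was at 26054 and 24536, 17255 and 15983, 21561 and 22781, and 22108 and 23596 CPM, and here the double mutants overlapped each other. How many of all genes tested separate every strain, as *vit-1* to *vit-5* did, was not counted. Separation of a pair of strains is common. For 14.8% of genes both *hif-1* double mutant libraries lay below both wild-type libraries. For 20.9% both *cyp-36A1* double mutant libraries lay above both *egl-9(lf)* libraries.

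**Figure D2:**
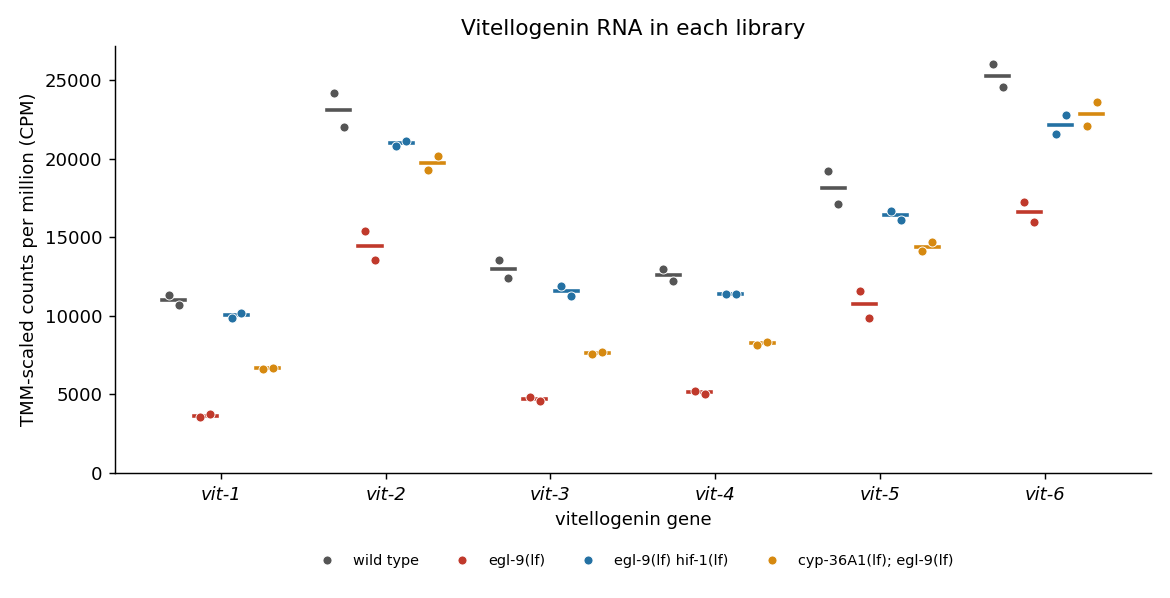
TMM-scaled CPM of each vitellogenin gene in every library (points) with the mean of 2 libraries (bars), by strain. *egl-9(lf)* is the lowest strain for all 6 genes, down to 3536 CPM for *vit-1*, and the *cyp-36A1* double mutant is intermediate except for *vit-6*, where it overlaps the *hif-1* double mutant.

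All 6 vitellogenin genes fell in *egl-9(lf)* against the wild type. Of the 14311 genes tested, 13.6% were called lower at an adjusted p under 0.05 by edgeR's quasi-likelihood test, Benjamini-Hochberg adjusted over all of them. *vit-1* fell by 1.60 on the log2 scale (SE 0.13, adjusted p = 2.0e-05), or 3.02-fold. *vit-3* fell by 1.46 (SE 0.14, adjusted p = 5.3e-05) and *vit-4* by 1.29 (SE 0.13, adjusted p = 1.1e-04). *vit-5* fell by 0.76 (SE 0.15, adjusted p = 0.0054), *vit-2* by 0.67 (SE 0.15, adjusted p = 0.0094) and *vit-6* by 0.61 (SE 0.15, adjusted p = 0.015), or 1.52-fold. The median of the 6 log2 fold changes was -1.03, against 0.0047 over all genes tested. The calls of *vit-1*, *vit-3* and *vit-4* held under each alternative, but those of *vit-2*, *vit-5* and *vit-6* were lost without wild-type replicate 1 or without *egl-9(lf)* replicate 2. Such a fit leaves 1 library in a strain, and it called fewer of all genes tested. The 3 log2 fold changes were then -0.59, -0.66 and -0.55 without the wild-type library. Without the *egl-9(lf)* library they were -0.59, -0.65 and -0.55. Leaving out wild-type replicate 2 or *egl-9(lf)* replicate 1 ended the call of *vit-6* alone. When libraries were scaled by their total alone, the genes called split into 1768 higher and 1788 lower instead of 1069 and 1949, and all 6 vitellogenin genes were still called lower.

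With *hif-1* also lost, vitellogenin RNA was higher than in *egl-9(lf)*. 5 of the 6 genes rose, beside 13.5% of all genes tested. *vit-1* rose by 1.47 on the log2 scale (SE 0.13, adjusted p = 3.9e-05), *vit-3* by 1.30 (SE 0.14, adjusted p = 1.2e-04) and *vit-4* by 1.15 (SE 0.13, adjusted p = 2.1e-04). *vit-5* rose by 0.61 (SE 0.15, adjusted p = 0.015) and *vit-2* by 0.54 (SE 0.15, adjusted p = 0.028). *vit-6* had a log2 fold change of 0.42 (SE 0.15), did not pass (adjusted p = 0.076), and had a 95% interval of 0.09 to 0.74. The median of the 6 was 0.88, against -0.014 over all genes. Without *egl-9(lf)* replicate 2, or without either *hif-1* double mutant library, *vit-2* and *vit-5* were lost and 3 members stayed called. *vit-2* alone was lost without *egl-9(lf)* replicate 1 or without either wild-type library, while *vit-6* was called without either *cyp-36A1* double mutant library. Limma on FPKM lost *vit-2* at each of 3 pseudocounts (adjusted p = 0.054 to 0.078), and *vit-6* was called by DESeq2 (adjusted p = 0.0015), with no filter on low counts (adjusted p = 0.0076) and in a fit of these strains alone (adjusted p = 0.016). Scaling by library totals alone split the genes called into 1769 higher and 1339 lower, instead of 1934 and 915.

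Between the *hif-1* double mutant and the wild type the test called 0 of the 6 genes, beside 0.314% of all genes tested. None passed at an unadjusted p under 0.05, and DESeq2 and limma also called 0. The log2 fold changes were nonetheless all below 0, from -0.13 for *vit-1* to -0.19 for *vit-6*. For each of the 6 genes both double mutant libraries lay below both wild-type libraries, a separation that 14.8% of all genes tested showed in this direction. The 95% interval of the ratio to the wild type ran from 0.749 to 1.11 for *vit-1* and from 0.699 to 1.10 for *vit-6*, so differences of that size were not detectable with 2 libraries a strain.

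**Figure D3:**
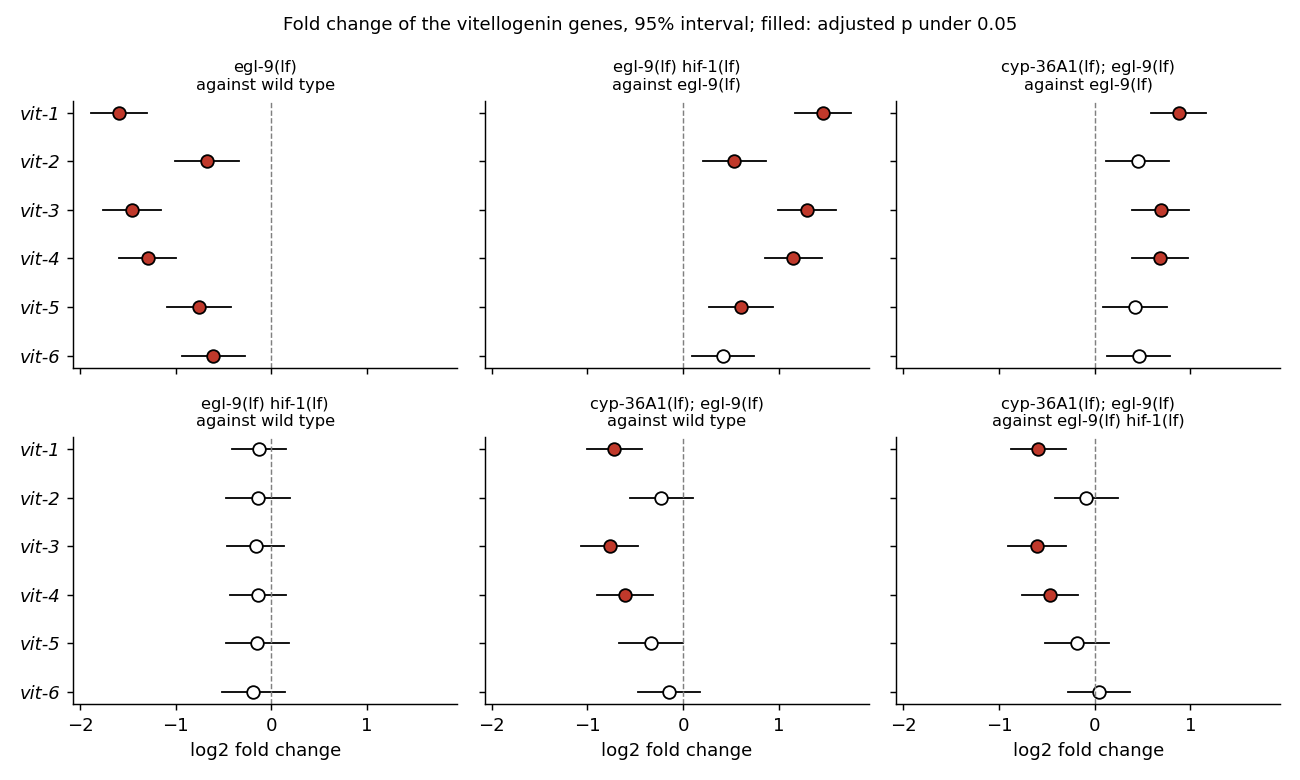
Log2 fold change (x axis) of each vitellogenin gene in the 6 comparisons, with its unadjusted 95% interval as a line. Filled points have an adjusted p under 0.05 in edgeR's quasi-likelihood test: 6 genes in *egl-9(lf)* against the wild type, 5 in the *hif-1* double mutant against *egl-9(lf)*, 0 in the *hif-1* double mutant against the wild type and 3 in each comparison of the *cyp-36A1* double mutant.

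Loss of *cyp-36A1* in the *egl-9(lf)* background was accompanied by a rise of 3 of the 6 genes, the lower tier, where 1.03% of all genes tested were called higher. *vit-1* rose by 0.88 on the log2 scale (SE 0.13, adjusted p = 0.0041), or 1.84-fold. *vit-3* and *vit-4* each rose by 0.69 (SE 0.14 and 0.13, adjusted p = 0.022 and 0.020). The other 3 genes had log2 fold changes of 0.46 for *vit-6* (adjusted p = 0.22), 0.45 for *vit-2* (adjusted p = 0.25) and 0.42 for *vit-5* (adjusted p = 0.31). Their unadjusted 95% intervals, 0.13 to 0.79, 0.12 to 0.78 and 0.09 to 0.76, lay above 0. The median of the 6 was 0.57, against 0.018 over all genes, and for all 6 genes both *cyp-36A1* double mutant libraries lay above both *egl-9(lf)* libraries, as they did for 20.9% of the genes tested.

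This comparison was the least settled of the 6. DESeq2 called all 6 members higher, beside 186 of 14311 genes. The fit with no filter on low counts did so too, beside 348 of 21372 genes. Its prior df were infinite, so each gene's own replicate spread did not enter it. A fit of these 2 strains alone called 0 members, beside 103 of 13612 genes called higher (adjusted p = 0.054 for *vit-1*). Without *egl-9(lf)* replicate 1 there were 0 calls, and without *egl-9(lf)* replicate 2, wild-type replicate 1 or wild-type replicate 2 only *vit-1* was called. Leaving out either *cyp-36A1* double mutant library added *vit-6*, which made 4. The log2 fold change of *vit-1* itself ranged from 0.84 to 0.85 in the fits that ended its call. With replicate number as a block 3 members were called, while the genes called higher rose from 148 to 272 of those tested.

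Against the wild type the *cyp-36A1* double mutant was called lower for the lower tier alone, and the other 3 members also had values below 0. *vit-3* was lower than in the wild type by 0.77 on the log2 scale (SE 0.14, adjusted p = 0.0038), *vit-1* by 0.72 (SE 0.13, adjusted p = 0.0043) and *vit-4* by 0.61 (SE 0.13, adjusted p = 0.010). These 3 of 6 stand beside 12.3% of all genes called lower. *vit-5*, *vit-2* and *vit-6* had log2 fold changes of -0.33 (adjusted p = 0.15), -0.23 (adjusted p = 0.31) and -0.15 (adjusted p = 0.52). For *vit-6* the 95% interval of the ratio to the wild type was 0.720 to 1.13. DESeq2 added *vit-5* to the calls, and the call of *vit-4* was lost without wild-type replicate 1 or when only these strains were fitted.

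The double mutants also differed directly. *vit-3* was lower in the *cyp-36A1* double mutant than in the *hif-1* double mutant by 0.60 on the log2 scale (SE 0.14, adjusted p = 0.011), *vit-1* by 0.59 (SE 0.13, adjusted p = 0.0099) and *vit-4* by 0.47 (SE 0.13, adjusted p = 0.032), so 3 of 6 were called beside 12.4% of all genes lower. The log2 fold changes of *vit-5*, *vit-2* and *vit-6* were -0.19, -0.09 and 0.04, with adjusted p = 0.45, 0.74 and 0.88. The 95% interval of the ratio for *vit-6* was 0.822 to 1.29. A fit of the double mutants alone called 0 of 6, and the call of *vit-4* was lost without any 1 of the 6 wild-type, *egl-9(lf)* and *hif-1* double mutant libraries (adjusted p = 0.054 to 0.10). The comparisons share strains, so their values for a gene are not independent of each other.

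The unequal change of the members showed inside each library, where depth and scaling cancel. The ratio of *vit-1* to *vit-2* in FPKM, both YP170B genes, was 0.443 and 0.460 in wild-type animals and 0.218 and 0.261 in *egl-9(lf)* animals. It was 0.450 and 0.458 in the *hif-1* double mutant and 0.326 and 0.315 in the *cyp-36A1* double mutant. The wild type and the *hif-1* double mutant overlapped, and the other strains stood below them.

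The YP170A genes showed the same pattern. The ratio of *vit-3* to *vit-5* was 0.705 and 0.725 in wild-type animals, 0.419 and 0.462 in *egl-9(lf)* animals, 0.711 and 0.701 in the *hif-1* double mutant, and 0.536 and 0.521 in the *cyp-36A1* double mutant. The ratio of the neighbours *vit-3* and *vit-4* shifted less, at 1.05 and 1.02 in wild-type animals, 0.930 and 0.910 in *egl-9(lf)* animals, 1.04 and 0.988 in the *hif-1* double mutant, and 0.929 and 0.918 in the *cyp-36A1* double mutant. It too was lower in *egl-9(lf)* and in the *cyp-36A1* double mutant, with no overlap with the other strains. *vit-6* made up 25.3% and 25.7% of the FPKM of the 6 genes in wild-type animals and 31.1% and 31.3% in *egl-9(lf)* animals, while *vit-1* made up 9.85% and 10.1%, and 5.66% and 6.60%. The members that changed more thus cut across the polypeptides they encode. These ratios were not tested. An exact permutation test of 2 libraries against 2 could give no p below 0.333. The sharing of reads between near-identical members bears on these ratios directly, and its part in them was not tested.

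**Figure D4:**
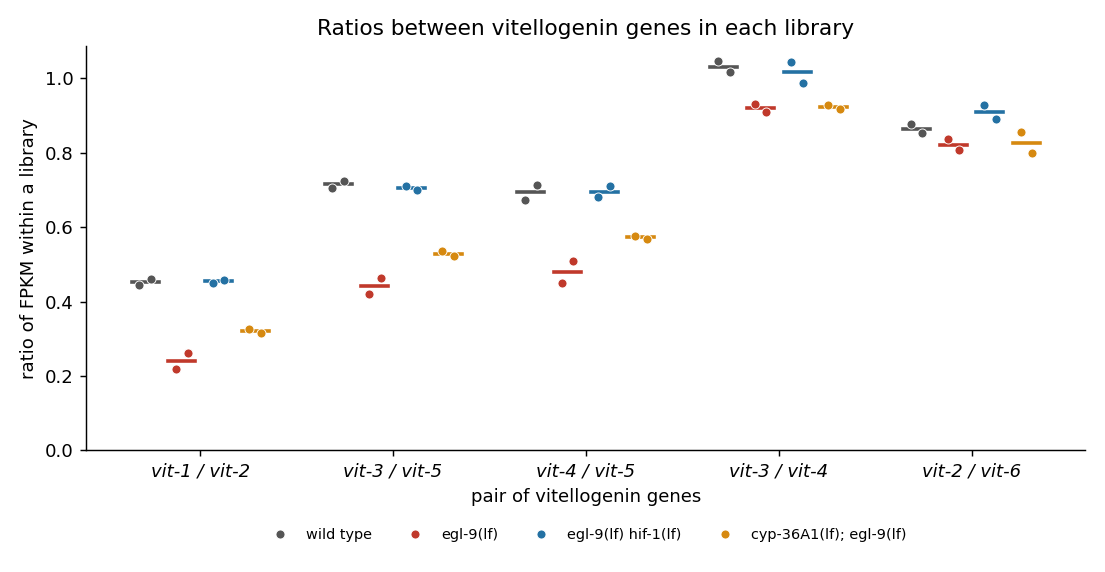
Ratio of FPKM between pairs of vitellogenin genes within each library (points) and the mean of 2 libraries (bars), by strain. The ratio of *vit-1* to *vit-2* is 0.218 and 0.261 in *egl-9(lf)* and 0.443 and 0.460 in the wild type, while that of *vit-3* to *vit-4* is 0.930 and 0.910 in *egl-9(lf)* and 1.05 and 1.02 in the wild type.

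Counts summed over each polypeptide do not depend on how reads were divided within it. For *egl-9(lf)* against wild-type animals the sum of *vit-1* and *vit-2* had a log2 fold change of -0.91, and the sum of *vit-3*, *vit-4* and *vit-5* one of -1.09. Against *egl-9(lf)* the sums had 0.78 and 0.94 with *hif-1* also lost, and 0.55 and 0.56 with *cyp-36A1* also lost. Against the wild type they were -0.14 and -0.15 in the *hif-1* double mutant and -0.37 and -0.53 in the *cyp-36A1* double mutant. *vit-6*, which was not summed with another gene, had the values -0.61, 0.42, 0.46, -0.19 and -0.15 in those comparisons.

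The 6 genes varied together. Over the 8 libraries, Pearson's r of log2 CPM between pairs of members ran from 0.886 for *vit-3* and *vit-6* to 0.998 for *vit-1* and *vit-4*. These points share strains, libraries and scaling, so r only describes the pattern. Among 7759 other genes with a mean of at least 10 CPM, those most like the mean of the members were R04B5.5 (r = 0.991), B0035.13 (r = 0.985), *cest-2.1* (r = 0.984), T28F3.8 (r = 0.982), *tbh-1* (r = 0.982), *spl-1* (r = 0.980), *pgp-14* (r = 0.977) and *pud-4* (r = 0.976). *tbh-1* encodes the tyramine hydroxylase of octopamine synthesis, *spl-1* a sphingosine phosphate lyase and *pgp-14* a P-glycoprotein transporter. *pud-4* had the widest range of the 8, at 201 and 201 CPM in wild-type animals, 4.98 and 6.72 CPM in *egl-9(lf)* animals, 248 and 222 CPM in the *hif-1* double mutant and 60.1 and 54.9 CPM in the *cyp-36A1* double mutant. It fell by 5.11 on the log2 scale in *egl-9(lf)* and rose by 3.31 in the *cyp-36A1* double mutant against *egl-9(lf)*.

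Of 12 genes known to regulate vitellogenin transcription, 0 were called in *egl-9(lf)* against the wild type by edgeR, DESeq2 or limma. By edgeR 7.47% of all genes tested were called higher and 13.6% lower. At an unadjusted p under 0.05 there were 2 of the 12. With no filter on low counts, in a fit of the 2 strains alone, or with the replicate number as a block, 2 were called lower. Those fits called 2381 of 21372, 2577 of 13636 and 2408 of 14311 genes lower. *unc-62*, whose homeodomain protein activates the *vit* genes in the adult intestine, had a log2 fold change of -0.20 (adjusted p = 0.35), and *ceh-60*, its PBX-type partner, one of -0.04 (adjusted p = 0.93). *elt-2*, the GATA factor that binds *vit* promoters, had -0.23 (adjusted p = 0.59), and *pqm-1*, a zinc finger factor, had 0.22 (adjusted p = 0.77). *mab-3*, which represses vitellogenins in males, had -0.68 (adjusted p = 0.32) at 0.540 to 1.09 CPM, and *lin-29*, a timing factor of the larva-to-adult switch, had -0.56 (adjusted p = 0.24). *lin-29* and *ceh-60* were also low, at 4.01 to 9.47 and 6.88 to 13.3 CPM, with SE of 0.32 and 0.29. *daf-2*, the insulin receptor gene, had the highest value, 0.26 (adjusted p = 0.43), and *daf-16*, its FOXO target, had 0.13 (adjusted p = 0.43). The median of the list was -0.22, and 2 of its genes, *elt-2* and *elt-7*, are also among the intestine markers. In the *hif-1* and *cyp-36A1* double mutants against *egl-9(lf)* 0 of 12 were called in both cases, with 1 and 0 at an unadjusted p under 0.05. The shares of all genes called higher there were 13.5% and 1.03%. In the *cyp-36A1* double mutant against the wild type 1 of 12 was lower, beside 12.3% of all genes. It was *lrp-2*, a lipoprotein receptor family gene (log2 fold change -0.65, adjusted p = 0.015).

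Few genes for the later steps of yolk traffic passed the test. Of 10 genes of yolk uptake and endocytosis, 0 were called in *egl-9(lf)* against wild-type animals, with 1 at an unadjusted p under 0.05 and 1 called higher by limma on FPKM. The shares over all genes tested were 7.47% higher and 13.6% lower. *rme-2*, the yolk receptor of the oocyte, was at 722 and 780 CPM in wild-type animals and 919 and 918 CPM in *egl-9(lf)* animals (log2 fold change 0.29, adjusted p = 0.13). *rme-4* had the lowest value of the list, -0.13 (adjusted p = 0.59), and *chc-1*, the clathrin heavy chain, had 0.19 (adjusted p = 0.30). Of 8 genes of yolk particle assembly and secretion, *hsp-4*, a BiP chaperone of the endoplasmic reticulum, rose by 0.35 (adjusted p = 0.043). So 1 was called higher, beside 7.47% of all genes tested, and 0 were lower. That call was lost without any 1 of the wild-type or *egl-9(lf)* libraries. *dsc-4*, the large subunit of the microsomal triglyceride transfer protein, had -0.26 in *egl-9(lf)* (adjusted p = 0.25) and was lower in the *cyp-36A1* double mutant than in the wild type by 0.51 (adjusted p = 0.041). The disulfide isomerase genes *pdi-1* and *pdi-2* had -0.06 and -0.01, with adjusted p = 0.74 and 0.96.

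Some markers of the intestine, the tissue that makes vitellogenin, moved with it. Of all genes tested, 13.6% were called lower in *egl-9(lf)* than in the wild type. Of 11 markers 4 were lower in *egl-9(lf)* than in the wild type and 0 higher (3 to 4 lower when 1 library was left out), with a median log2 fold change of -0.23 against -1.03 for the vitellogenins. *pho-1*, an intestinal acid phosphatase, fell by 1.40 (adjusted p = 9.5e-04), *cpr-6*, a cathepsin B-like protease, by 0.77 (adjusted p = 0.0043), *vha-6*, an intestinal proton pump subunit, by 0.74 (adjusted p = 0.0027), and *act-5*, the actin of the microvilli, by 0.55 (adjusted p = 0.044). The most abundant marker, *asp-1*, had 0.14 (adjusted p = 0.52), and *pept-1*, a peptide transporter, had 0.44 (adjusted p = 0.34). Without *hif-1* the same 4 genes were higher than in *egl-9(lf)*, beside 13.5% of all genes, and no others were called. In the *cyp-36A1* double mutant 0 of 11 were called against *egl-9(lf)*, beside 1.03% of all genes called higher, with 1 at an unadjusted p under 0.05. There *vha-6* and *pho-1* were lower than in the wild type, beside 12.3% of all genes. The summed CPM of the list was 4453 and 4489 in wild-type animals, 3904 and 3974 in *egl-9(lf)* animals, 3958 and 4747 in the *hif-1* double mutant, and 4410 and 3992 in the *cyp-36A1* double mutant. The part of intestinal mass in the vitellogenin values was not tested.

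Germ cell markers differed between the strains as well. Of 12 sperm genes 10 were lower in *egl-9(lf)* than in the wild type, beside 13.6% of all genes tested. Among them *msp-142*, a major sperm protein gene, fell by 1.64 (adjusted p = 2.3e-04). The summed CPM of the list was 842 and 875 in wild-type animals, 326 and 361 in *egl-9(lf)* animals, 762 and 1081 in the *hif-1* double mutant, and 477 and 409 in the *cyp-36A1* double mutant. 10 of 12 were higher in the *hif-1* double mutant than in *egl-9(lf)*, beside 13.5% of all genes. In the *cyp-36A1* double mutant 0 of 12 differed from *egl-9(lf)* (3 at an unadjusted p under 0.05), beside 1.03% of all genes called higher. Against the wild type 10 of 12 were lower there, beside 12.3% of all genes. Of 13 oocyte and eggshell genes, *rme-2* among them, 6 were higher in *egl-9(lf)* and 2 lower, beside 7.47% of all genes called higher and 13.6% lower. *egg-3*, needed for the egg's response to fertilization, was up by 0.48 (adjusted p = 0.020) and *perm-2*, a protein of the eggshell, down by 0.58 (adjusted p = 0.0057). The higher calls were not stable, since 0 remained without any 1 of the wild-type or *egl-9(lf)* libraries, while the sperm list kept at least 8 lower calls. In the *cyp-36A1* double mutant 8 of the 13 were higher than in the wild type and 0 lower, beside 1090 of 14311 genes called higher. Against *egl-9(lf)* 2 were higher in the *hif-1* double mutant, beside 13.5% of all genes, and 0 differed in the *cyp-36A1* double mutant. The summed CPM of the oocyte list was 9304 and 10033 in wild-type animals, 11527 and 11578 in *egl-9(lf)* animals, 11018 and 9237 in the *hif-1* double mutant, and 11878 and 11930 in the *cyp-36A1* double mutant. The part of the state of the germ line in the vitellogenin values was not tested.

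Some markers of stage moved too. Of all genes tested, 7.47% were called higher in *egl-9(lf)* than in the wild type and 13.6% lower. Of 5 adult cuticle collagens 3 were higher in *egl-9(lf)* (0 without wild-type replicate 1) and 0 lower, with *col-7* up by 2.55 (adjusted p = 0.011), while *col-19*, the usual marker of the adult cuticle, had -0.39 (adjusted p = 0.12). Among 8 moulting genes tested, of 9 listed, *mlt-10* rose by 3.07 (adjusted p = 4.2e-05) from 1.96 and 1.88 CPM to 14.8 and 17.7 CPM, and *nas-37* fell by 0.51 (adjusted p = 0.028). In the *cyp-36A1* double mutant *mlt-10* was at 27.5 and 30.2 CPM, further from the wild type than in *egl-9(lf)* (log2 fold change between the mutants 0.83, adjusted p = 0.12). *nas-37* also lay further from the wild type there (log2 fold change between the mutants -0.17, adjusted p = 0.27). The 3 higher collagens instead lay nearer to the wild type there, as each vitellogenin did. Between these mutants the collagen list had a median log2 fold change of -1.43, and 0 of 5 were called. Of 9 embryo genes 7 were too low to test, and of the other 2 *skn-1*, also expressed in the adult intestine, was higher by 0.41 (adjusted p = 0.027). Of 7 muscle genes and 6 neuron genes 0 were called in *egl-9(lf)* against wild-type animals, and of 8 germ line genes *htp-3*, a meiotic chromosome axis gene, was called higher (log2 fold change 0.44, adjusted p = 0.011). The part of developmental timing in the vitellogenin values was not tested.

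**Figure D5:**
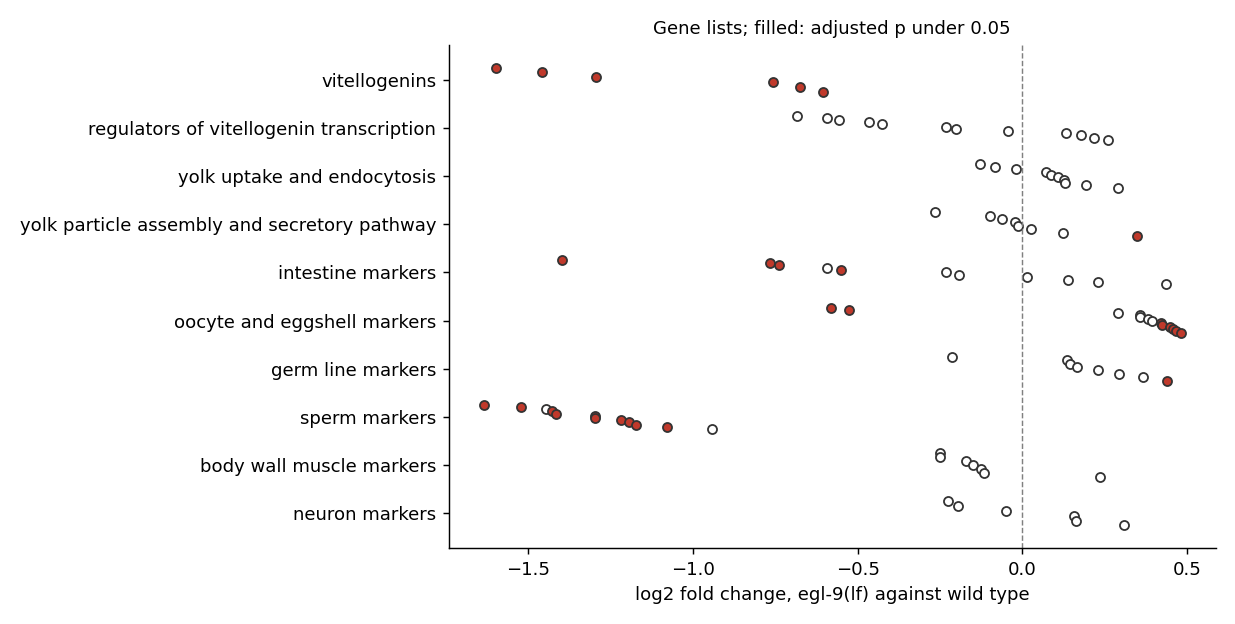
Log2 fold change in *egl-9(lf)* against the wild type (x axis) of every tested gene in 10 lists (rows), filled where the adjusted p is under 0.05. The 6 vitellogenins lie at -1.60 to -0.61, all filled, 10 of 12 sperm genes are filled and low, 4 of 11 intestine markers are filled, and no regulator of vitellogenin transcription is filled.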

How the data were processed

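RNA was enriched for polyadenylated messages, sequenced single-end and aligned by the authors with Bowtie 1.0.1 in RSEM 1.2.15 to ce10 with Ensembl gene models. The authors deposited expected counts per gene, not normalized between libraries, and FPKM values, which divide each by length and library total. Build and reference differ, so no coordinates are given, and no sequences were at hand.

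Groups came from the genotype labels. Expected counts were rounded to whole numbers (36.1% of those above 0 were not whole). Genes were filtered with filterByExpr, scaled by TMM and tested over all 4 strains with the quasi-likelihood test of edgeR 4.0.16 in R 4.3.3, Benjamini-Hochberg adjusted over 14311 genes. The filter keeps a finite estimate of the spread (prior df 6.63). CPM are TMM-scaled. SE and 95% intervals come from that fit. Alternatives used DESeq2 1.42.0 and limma 3.58.1 on log2(FPKM + 0.5), with pseudocounts of 0.1 and 1 also tried. The code was tested on simulated data. Intervals and p-values rest on 2 libraries a strain. Library totals were 11925027 to 22269111.

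The difference between replicate 2 and replicate 1 was weakly correlated between strains (r = 0.11 to 0.27 over 14311 genes for all 6 pairs of strains). The labels name no batch shared by same-numbered libraries. The study's methods name no block, and none entered the main test.

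The members and lists were chosen with earlier results of these data known. Named genes are the 6 members, the genes of each list with the highest and lowest fold change in *egl-9(lf)* and the most abundant, fixed regulators and targets, and the 8 genes most correlated with the members. Called genes of a list named beyond these were chosen after their values were seen.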

Additional observations from a re-analysis of the deposited data

How the results depend on the processing

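Every called member difference kept its sign in all alternatives, and the uncalled *vit-6* between the double mutants, at 0.04, ranged from -0.02 to 0.09. In *egl-9(lf)* against the wild type 3 to 6 members were called when 1 library was left out (6 with all), in *egl-9(lf) hif-1(lf)* against *egl-9(lf)* 3 to 6 (5 with all), in *cyp-36A1(lf); egl-9(lf)* against *egl-9(lf)* 0 to 4 (3 with all), and in this double mutant against the wild type or the *hif-1* double mutant 2 to 3 (3 with all). Leaving out a library of either strain in *egl-9(lf)* against the wild type also left fewer of all genes called. In the *cyp-36A1* double mutant against *egl-9(lf)* 6 members were called with no filter on low counts, where prior df were infinite, and 6 by DESeq2. A fit of only the 2 strains compared called 0, as it did between the double mutants. The genes called in the *cyp-36A1* double mutant against *egl-9(lf)* numbered 334, and 840 with no filter. With the replicate block the counts of members called were 6, 5, 3, 0, 3 and 3, and the block changed no member's call, while the genes called in the *cyp-36A1* double mutant against *egl-9(lf)* rose to 641. A block with the newer estimate of spread (legacy=FALSE) lost *vit-6* in *egl-9(lf)* against the wild type, *vit-2* in the *hif-1* double mutant against *egl-9(lf)* and *vit-4* between the double mutants. As shares of summed FPKM instead of expected counts, the vitellogenins took 2.47%, 1.47%, 2.19% and 1.99% in the wild type, *egl-9(lf)*, the *hif-1* double mutant and the *cyp-36A1* double mutant. FPKM divides by gene length, so these shares are on another scale than those of expected counts. Limma on log2(FPKM + 1) lost *vit-6* in *egl-9(lf)* against the wild type (adjusted p = 0.054). An alternative that would have grouped members by protein identity was not run, since no protein sequences were at hand. Sums by polypeptide, chosen after seeing the data, replaced it. With 2 libraries a strain, differences such as those of *vit-6* between the double mutants were not detectable.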
